A study of Apis mellifera with 9 samples.

Results

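The peak-free stretches described here are the parts of the honeybee genome where no H3K27me3 peak was called in any of 6 ovary lists over at least 10000 bases. To find them, overlapping peaks of the 6 lists (1 shared base or more) were joined to regions, and the gaps between neighbouring regions of a scaffold were measured. Of 51755 such gaps, 1818 reached 10000 bases, which is 3.51% of all gaps. The stretches were chosen by the peak positions of these 6 lists, so their number, length and freedom from peaks are descriptions. They lay on 342 scaffolds and held 38.98 Mb, or 17.7% of the 220.2 Mb that the lists span and 32.1% of all gap bases.

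The lists came from chromatin immunoprecipitation and sequencing (ChIP-seq) of ovaries of Apis mellifera, the honeybee, with 2 samples in each of 3 groups. Queens were active egg layers heading colonies, about 12 months old, and the labels give them no ovary score. Queen-less workers came from nucleus boxes that had been without a queen for 2 to 4 weeks, and their ovaries had a score of 3. Queen-right workers came from hives with a laying queen, and their ovaries had a score of 0. Chromatin of whole ovaries was used, so a list averages over the cells of an ovary, germ line and soma alike. Each sample was sequenced as a pool of repeat immunoprecipitations, and 3 further samples are inputs that have no peak list here. The worker groups share a caste and differ in ovary state and the presence of a queen, which change together. Queens differ from both worker groups in caste, and from queen-right workers also in ovary state. Factors that change together in a comparison cannot be told apart.

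H3K27me3, trimethylation of lysine 27 of histone H3, is deposited by Polycomb repressive complex 2 and is associated with genes that are kept silent. The mark often forms broad domains, since the complex binds the mark it makes and spreads it to neighbouring nucleosomes. In honeybee workers the queen's pheromone holds the ovary inactive, and loss of the queen allows it to become active. Sequence outside the domains may be transcribed, may be silenced in another way, or may not have been reachable by the reads.

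That last point limits every value given here. The lists give no read numbers and no sequencing depth, and a stretch without a peak cannot be told apart from a stretch to which no read could be mapped. Peaks covered 63.1 Mb in queen 1, 53.5 in queen 2, 59.2 in queen-less worker 1, 78.0 in queen-less worker 2, 64.8 in queen-right worker 1 and 48.8 in queen-right worker 2. The lists of queen-less workers thus held both the highest and a middle value. Genes within the stretches were not analysed here, because none of the scaffold names of the lists is in the gene table at hand, and for the same reason no sequence is shown.

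Most stretches were short relative to the longest. Their lengths began at 10004 bases, with a lower quartile of 12616, a median of 17132, an upper quartile of 25241 and a 90th percentile of 36970 bases. The median of the shorter gaps was 1114 bases. Stretches under 15000 bases numbered 733 (40.3%) and held 22.9% of the bases, while 627 stretches of 20000 to 50000 bases held 47.0%. Another 67 reached 50000 bases, and 7 reached 100000 bases, each on a scaffold of its own. The 10000-base limit did not fall at a break in the distribution. There were 272 gaps within 1000 bases below the limit and 197 stretches within 1000 bases above it. The 3 stretches just inside the limit had 10004, 10012 and 10014 bases, and the 3 gaps just outside it had 9993, 9994 and 9998 bases.

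The longest stretch had 140549 bases and lay on scaffold NW_003377967.1 from 429864 to 570412. It made up 24.3% of the span of that scaffold and ended near its far end. Its bordering regions were 1067 and 948 bases wide, and both were called in all 6 lists. In each list alone, the gap at this place measured 140879 bases in queen 1, 141137 in queen 2, 140828 in queen-less worker 1, 140816 in queen-less worker 2, 140973 in queen-right worker 1 and 141148 in queen-right worker 2. The 6 lists thus drew nearly the same stretch, from peaks with scores between 17 and 65.

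The second longest stretch was of the opposite kind. It had 117695 bases on NW_003378135.1 from 124026 to 241720, and each of its edges came from a single list. Queen-less worker 1 alone had the region on the left, 643 bases wide with a score of 12, near the lowest value of 10 that any list holds. Queen-right worker 1 alone had the region on the right, 320 bases wide with a score of 37. In the other lists the next peak to the right lay 6376 to 23333 bases farther on, and only queen-less worker 1 had any peak to the left. The stretch would therefore have been longer, or open to the scaffold start, with those peaks left out.

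The third longest stretch had 113308 bases on NW_003378077.1 from 370823 to 484130. Its borders were called in 5 and 6 lists, and the gap in each list alone measured 113356 to 115139 bases. The fourth had 108437 bases on NW_003378122.1 from 393630 to 502066, with borders called in 4 lists and in 1. Here the lists differed widely. The gap in each list alone measured 117798 bases in queen 1, 190543 in queen 2, 110116 in queen-less worker 1, 200692 in queen-less worker 2, 163519 in queen-right worker 1 and 154778 in queen-right worker 2. The ranges of the groups overlapped, and the lowest and the highest value both came from queen-less workers.

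The fifth longest stretch, 106701 bases on NW_003378081.1 from 760259 to 866959, lay between wide domains. Its borders were 9766 and 14507 bases wide and were called in all 6 lists, and the gap in each list alone measured 106701 to 108470 bases. The stretch with the widest pair of shared borders was much shorter, with 12930 bases on NW_003377937.1 from 174535 to 187464. The domains beside it were 13463 and 27441 bases wide. Both were called in every list, and the gap between them measured 13501 bases in queen 1, 13002 in queen 2, 13194 in queen-less worker 1, 13291 in queen-less worker 2, 13510 in queen-right worker 1 and 14536 in queen-right worker 2. It was the only stretch with borders of at least 10000 bases on both sides.

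Stretches were found in every class of scaffold span from 10 kb upwards, but on a smaller share of short scaffolds. A stretch was present on 37.0% of the 211 scaffolds of 10 to 100 kb and on 78.0% of the 164 of 100 to 500 kb. For the 76 scaffolds of 500 kb to 1 Mb the share was 96.1%. Of the 64 scaffolds with a span of at least 1 Mb, 63 had a stretch. The exception, NW_003377949.1, had none among 397 merged regions over 1.04 Mb. Per Mb of span there were 15.4 stretches on scaffolds of 10 to 100 kb, 10.5 on those of 100 to 500 kb, 8.40 on those of 500 kb to 1 Mb and 7.13 on those of at least 1 Mb. The share of the span in stretches went the same way, from 30.0% in the shortest of these classes through 22.8% and 17.8% to 15.5% in the longest.

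Large scaffolds differed widely in how much of them was peak-free. The share of span in stretches had a median of 15.1% over the 64 scaffolds of at least 1 Mb and reached 42.2% on NW_003378170.1, where 22 stretches held 535.2 kb. NW_003377934.1 had the most stretches per Mb, 19.9 against a median of 6.78, and 24 stretches made up 39.6% of its span. At the other end, NW_003378112.1 had a single stretch (1.16% of its span) and NW_003377996.1 had 5 (3.41%). The regions of these scaffolds showed the reverse, as merged regions made up 13.1% and 9.60% of the span of the first pair and 59.7% and 58.0% of the span of the second pair. By number alone, NW_003378088.1 led with 39 stretches over 4.71 Mb and NW_003378039.1 followed with 37 over 4.00 Mb. Then came 3 scaffolds with 31 each, of which NW_003377872.1, with a span of 1.66 Mb, was the shortest.

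Along large scaffolds the stretches were spread over the whole length. On scaffolds of at least 1 Mb, each divided into 3 equal parts, 255 stretches had their centre in the first part, 306 in the middle part and 266 in the last part. Over scaffolds of any span, a stretch was the first or last gap of its scaffold in 137 cases (7.54%), against 2.46% of shorter gaps. Stretches were 10.2% of the 1211 gaps on the 211 scaffolds of 10 to 100 kb, and 3.08% of gaps on scaffolds of at least 1 Mb. Short scaffolds hold few gaps, and the part of scaffold span in the first-or-last shares was not tested. Sequence before the first peak of a scaffold is not a gap between regions and was not counted. On 116 scaffolds it was at least 10000 bases long, 3.21 Mb in all.

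Stretches followed each other more often than their share of gaps. Of the 1818 stretches, 379 (20.8%) were followed by another stretch beyond a single merged region, whereas 3.51% of all gaps were stretches. Where a next gap existed, it was a stretch in 21.7% of cases after a stretch and in 2.77% after a shorter gap. The next gap had a median of 3010 bases after a stretch and 1125 bases after a shorter gap. The difference faded with distance but had not gone at the tenth gap. After a stretch, the second gap was a stretch in 15.9% of cases, the third in 13.4%, the fifth in 10.7%, the tenth in 8.45% and the twentieth in 4.70%. After a shorter gap, the same shares lay between 2.77% and 2.90%. These shares describe gaps of one genome, which are not replicates, and no test was made of them.

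In this way 657 stretches (36.1%) formed 278 runs of at least 2, and 245 of them formed 72 runs of at least 3. The other 1161 stood alone. The 379 regions that lay between stretches of a run were small islands, with a median width of 366 bases, and none reached 10000 bases. Only 21 of them (5.54%) were called in all 6 lists, beside 46.4% of all merged regions. Most of them, 213 (56.2%), were called in 1 list only, beside 16.1% of all merged regions.

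The run with most stretches held 7, on NW_003377934.1 from 712453 to 865176. By bases it was the third. A run of 5 stretches on NW_003377950.1 from 30763 to 224849 had 194087 bases, 98.5% of them free in every list, and a run of 4 on NW_003378169.1 from 176814 to 347033 had 170220 bases, 99.4% free. The islands of the run of 5 were 263 to 1535 bases wide and called in 1 to 3 lists, and those of the run of 4 were 234 to 453 bases wide and called in 1 list each. Of the 152724 bases of the run of 7, 97.5% were free of peaks in every list. Its 6 islands were 163 to 1861 bases wide. The widest was called in all 6 lists, another in 5, another in 3, and the remaining 3 in 1 list each. Queens 1 and 2 had 3 and 2 of these islands, queen-less workers 1 and 2 had 3 and 2, and queen-right workers 1 and 2 had 5 and 2. Peaks within the run summed to 2228 bases in queen 1, 1648 in queen 2, 2718 in queen-less worker 1, 1992 in queen-less worker 2, 2889 in queen-right worker 1 and 1533 in queen-right worker 2. The values of the groups overlapped.

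**Figure D1:**
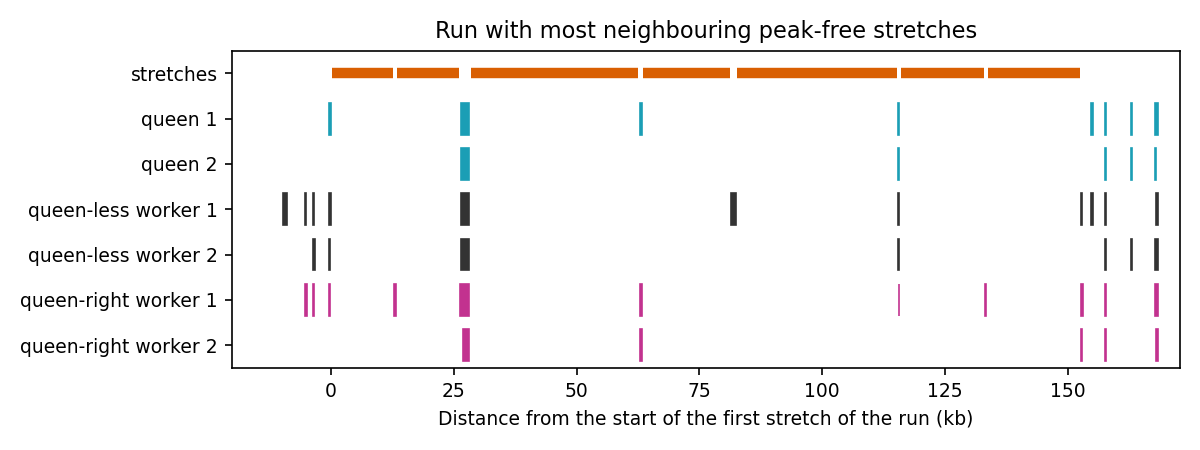
Peaks of the 6 lists along the run with most stretches (7) and 20 kb on either side, as distance in kb from the start of the first stretch. Each row of bars is a list, and the bars at the top mark the 7 stretches. A single island, 1861 bases wide, is present in every list, and 3 islands appear in 1 list each.

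Bordering regions were narrower than other regions. The 1818 stretches were bordered by 3257 merged regions, and 49290 other merged regions shared scaffolds with at least 2 regions. Median width was 473 bases for bordering regions (quartiles 261 and 888) and 797 bases for other regions (385 and 1833). Regions under 500 bases made up 52.5% of bordering and 34.3% of other regions. Domains of at least 10000 bases numbered 32 (0.982%) among bordering regions and 1157 (2.35%) among other regions. The widest bordering region had 61432 bases and the widest other region 183410 bases, and 31 stretches lay directly beside a domain of at least 10000 bases. The 379 islands between stretches had a median width of 366 bases, and the 2878 regions that bordered a stretch on 1 side had 491 bases.

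Bordering regions were also shared by fewer lists. They were called in all 6 lists in 647 cases (19.9%), against 49.0% of other regions and 46.4% of all. They were called in a single list in 1166 cases (35.8%), against 14.4% of other regions and 16.1% of all. Among regions of the same sharing the widths lay closer, with medians of 1498 bases for bordering and 1690 for other regions called in all 6 lists, and 267 and 247 bases for those called in 1 list. Put the other way, 2.61% of the regions called in all 6 lists bordered a stretch, and 14.1% of those called in 1 list. Since 1 list is enough to end a stretch, these shares depend in part on how the stretches were drawn, and they are given as a description.

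**Figure D2:**
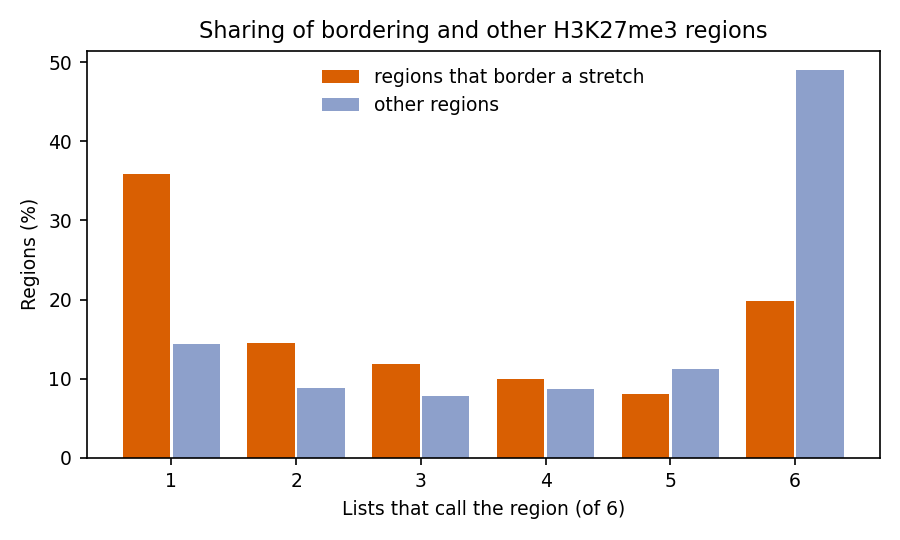
Percent of merged regions (vertical axis) called in 1 to 6 lists (horizontal axis), for the 3257 regions that border a stretch and the 49290 other regions. Bordering regions were most often called in 1 list (35.8%) and other regions in all 6 (49.0%).

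Both borders were called in all 6 lists for 89 stretches (4.90%), 1 of the borders for 490 (26.95%) and neither for 1239 (68.2%). Of the shorter gaps, 29.6% had both borders in all 6 lists and 32.1% neither. Among stretches, the left border was called in all 6 lists in 18.6% of cases and the right border in 18.2%, and the product of these shares is 3.37%, below the 4.90% found. At least 1 border came from a single list for 1107 stretches (60.9%) and for 25.9% of shorter gaps, and both did for 272 stretches (15.0%) and 3.57% of shorter gaps. Stretches with both borders in all 6 lists had a median length of 14863 bases, and those with neither had 17228 bases. Of the 3636 edges, 555 (15.3%) had a peak within 1000 bases in all 6 lists and 1338 (36.8%) had one in a single list.

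The edges were drawn unequally by the lists. Queens 1 and 2 set 13.6% and 7.73% of the edges, queen-less workers 1 and 2 set 28.4% and 22.6%, and queen-right workers 1 and 2 set 16.2% and 12.3%. Both queen-less workers thus set more edges than any other sample. They did so in different ways. Queen-less worker 1 held 477 of the 1166 single-list borders (40.9%) and 18.5% of the other single-list regions, while queen-less worker 2 held 151 (13.0%) and 34.4%. Queens 1 and 2 held 10.6% and 4.72% of single-list borders, and queen-right workers 1 and 2 held 18.5% and 12.3%. Without queen-less worker 1 there were 1768 stretches with 40.98 Mb, of which 962 had the same edges as before, 52.9% of the 1818. Without queen 2 the edges of 85.8% were the same. Single-list borders were still the more frequent kind among bordering regions without queen-less worker 1, at 33.6% against 14.5% of other regions.

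Borders particular to a group were rare. Regions called in both samples of a group and in no other sample made up 0.829% of bordering regions for queens (27), 2.15% for queen-less workers (70) and 1.75% for queen-right workers (57). Among other regions these shares were 0.229%, 1.23% and 0.797% in the same order.

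Whether a stretch holds in data that did not draw it was examined by leaving out 1 list at a time. Stretches were found from the other 5 lists and then read in the list left out. The share of the bases of such stretches under its peaks was 0.239% for queen 1, 0.1004% for queen 2, 0.953% for queen-less worker 1, 0.271% for queen-less worker 2, 0.492% for queen-right worker 1 and 0.271% for queen-right worker 2. Over the rest of the span they covered 34.9% and 29.5%, 32.8% and 43.3%, and 35.9% and 27.04% in the same order. The difference averaged -33.5 percentage points and was negative in 6 of 6 samples (exact two-sided sign-flip permutation p = 0.03125, the smallest that 6 samples allow). The 6 differences share lists with each other and are not independent readings. Sequence to which no read maps is free in every list, so a negative sign was likely beforehand. The p-value states only that all 6 signs were the same.

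Small peaks of the list left out still broke many stretches. The share of these stretches that was entirely free of its peaks was 75.2% for queen 1, 85.5% for queen 2, 54.4% for queen-less worker 1, 59.1% for queen-less worker 2, 70.1% for queen-right worker 1 and 75.9% for queen-right worker 2. The share was lowest for both queen-less workers. When both lists of a group were left out, and the stretches came from the 4 lists of the other groups, the share free was 70.4% in queen 1, 79.8% in queen 2, 46.8% in queen-less worker 1, 46.5% in queen-less worker 2, 63.5% in queen-right worker 1 and 67.5% in queen-right worker 2. The groups did not overlap. The differences were 28.4 percentage points for queens minus queen-less workers, 9.59 for queens minus queen-right workers and -18.8 for queen-less minus queen-right workers, against a pooled replicate SD of 4.20. None could pass 0.05, since 2 samples against 2 give no p below 0.333 (exact permutation p = 0.333 each, adjusted p = 0.333). The order was not stable either. With lists trimmed from the lowest scores upwards until each covered the same 48.8 Mb, the differences were 3.28, 25.7 and 22.4 percentage points, so queen-less workers no longer had the lowest share. Without queen-less worker 2, queen-less minus queen-right workers gave -4.77 percentage points.

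**Figure D3:**
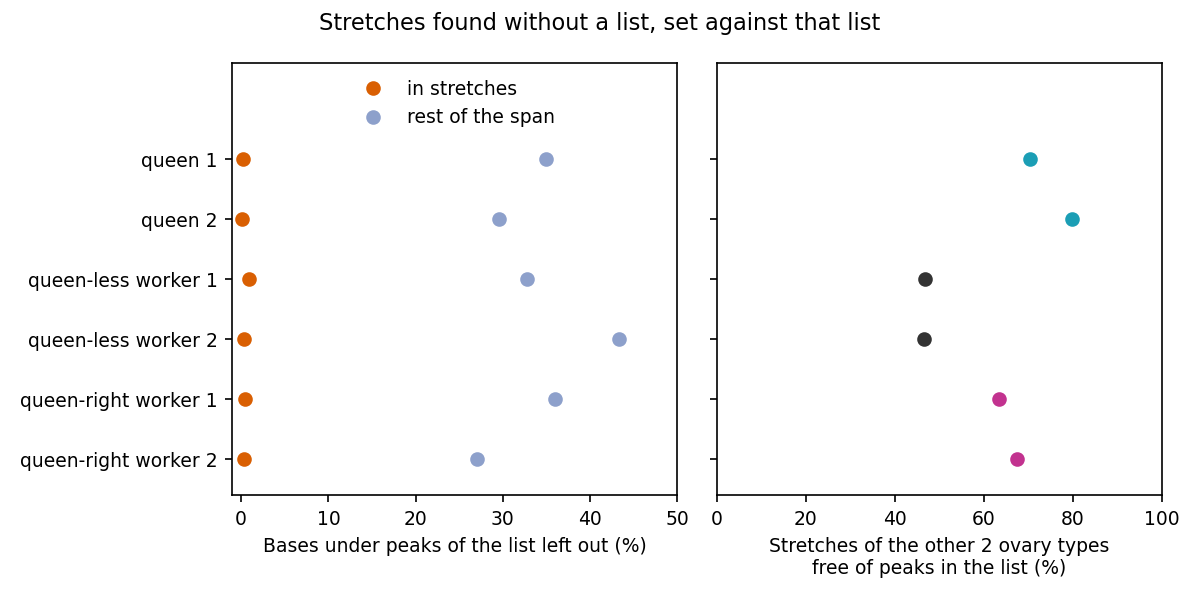
Stretches found without a list and then read in it, for the 6 samples. On the left, the percent of bases under peaks of the list left out, within stretches of the other 5 lists (0.1004% to 0.953%) and over the rest of the span (27.04% to 43.3%). On the right, the percent of stretches of the other 2 ovary types that were free of peaks in the list, lowest in queen-less workers.

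Bordering regions were also read in the list left out. For each list, the bordering and other regions of the other 5 lists were compared in it. The share of bordering regions with a peak was 51.8% in queen 1, 41.4% in queen 2, 55.8% in queen-less worker 1, 55.5% in queen-less worker 2, 42.3% in queen-right worker 1 and 40.8% in queen-right worker 2. Other regions had one in 74.6% and 66.9%, 69.3% and 87.5%, and 75.7% and 66.9% in the same order. The mean was 47.9 ± 7.22% for bordering and 73.5 ± 7.84% for other regions (SD, n = 6), a difference of -25.5 percentage points that was negative in 6 of 6 samples. It was smallest in size in queen-less worker 1, at -13.4 percentage points.

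Where the list left out had a peak at a border, that peak was short. Peaks at bordering regions summed to a median of 470 bases in queen 1, 432 in queen 2, 533 in queen-less worker 1, 434 in queen-less worker 2, 548 in queen-right worker 1 and 449 in queen-right worker 2. At other regions they summed to 714 and 635, 735 and 920, and 838 and 599 bases. The difference averaged -262.5 ± 119 bases (SD, n = 6) and was negative in 6 of 6 samples. It was widest in queen-less worker 2, at -486 bases.

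Peaks at borders also ranked lower by score. The score is the value of the authors' peak caller, compared here only by its percentile within its own list. The highest peak at a bordering region had a median percentile of 35.4 in queen 1, 38.6 in queen 2, 42.0 in queen-less worker 1, 32.2 in queen-less worker 2, 45.4 in queen-right worker 1 and 51.8 in queen-right worker 2. At other regions the medians were 54.6 and 55.0, 55.9 and 56.3, and 57.3 and 59.1. The mean difference was -15.5 ± 5.82 percentile points (SD, n = 6) and was negative in 6 of 6 samples. It was smallest in size in queen-right worker 2, at -7.34 points. Without peaks scoring under 20 the difference was -10.9 points, and at equal covered bases it was -6.13 points.

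These 3 differences are given without a test. A region of 1 list is enough to end a stretch of the 5 lists, so the borders hold more such regions by construction, and the values were set out by sharing. Among regions called in 1 of the other 5 lists, the list left out had a peak at 15.7 ± 7.10% of bordering and 21.8 ± 13.4% of other regions (SD, n = 6). Its peaks there summed to 323 ± 90.5 and 304.6 ± 61.5 bases, and the score percentiles were 16.3 ± 4.78 and 17.1 ± 4.76. In this class the differences of -6.15 percentage points, 18.4 bases and -0.740 percentile points were each smaller than their SD over the samples (12.3, 42.2 and 3.00). They were negative in 5, 3 and 2 of 6 samples in the same order. The share with a peak at bordering and other regions was 27.2% and 18.7% in queen-less worker 1, but 18.1% and 44.0% in queen-less worker 2.

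Among regions called in all of the other 5 lists, a peak was present at 94.3 ± 4.86% of bordering and 96.5 ± 2.76% of other regions. Peaks summed to 923.5 ± 125.7 and 1098 ± 271 bases, a difference of -174.4 ± 157 bases that was negative in 5 of 6 samples. The score percentile was 59.8 ± 3.01 at bordering and 67.5 ± 2.67 at other regions, a difference of -7.70 ± 3.27 points that was negative in 6 of 6 samples. At equal sharing, bordering and other regions thus lay closer in all 3 measures than over regions of any sharing.

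The sequence around stretches was less covered than the sequence farther away. Averaged over the 6 lists, peaks took 24.9 ± 5.44% of bases in the first 1000 bases beyond an edge, where the bordering region itself lies, and 15.1 ± 2.43% between 1000 and 2000 bases (SD, n = 6). The share then climbed to 20.6 ± 3.58% at 5 to 10 kb, 25.6 ± 4.46% at 10 to 20 kb, 34.1 ± 5.66% at 40 to 50 kb and 39.3 ± 6.13% at 75 to 100 kb. Beyond 100 kb it was 38.7 ± 6.502%. Each of the 6 lists had its lowest share between 1000 and 2000 bases from an edge, and each had at least 31.6% at 75 to 100 kb. In these lists, which also drew the stretches, a stretch thus lay on average in a peak-poor neighbourhood that reached past 10 kb on either side. The values nearest an edge depend in part on the rule, since each edge is the end of a region and a gap follows that region.

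**Figure D4:**
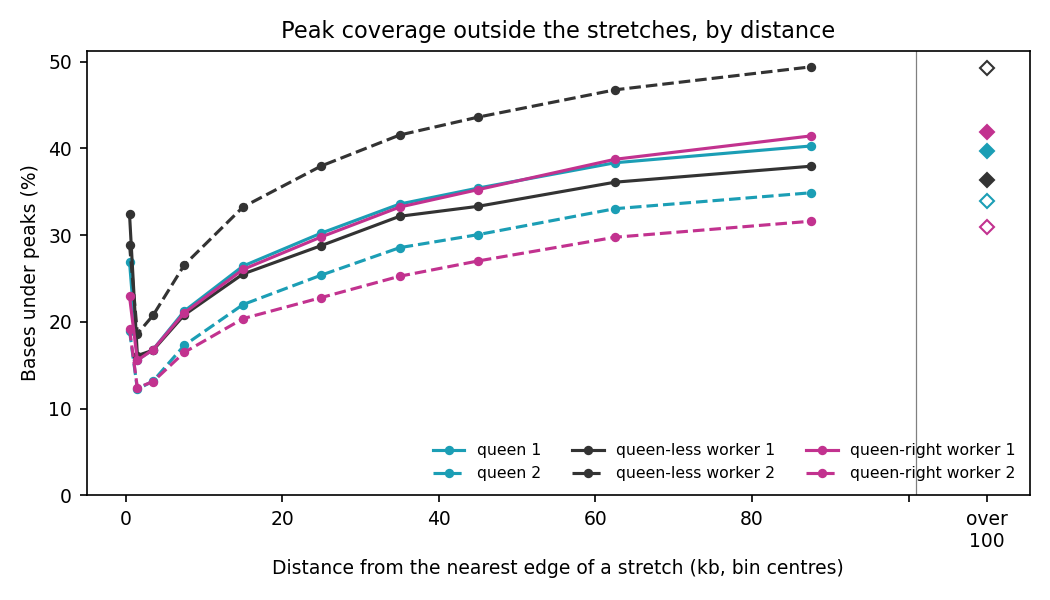
Percent of bases under peaks (vertical axis) against the distance from the nearest edge of a stretch in kb (horizontal axis, bin centres), outside the stretches, for the 6 lists. Solid lines are replicate 1, dashed lines replicate 2, and diamonds at the right edge (open for replicate 2) give all bases beyond 100 kb. All lists dip just beyond the edge (mean 15.1% at 1000 to 2000 bases) and climb to a mean of 39.3% at 75 to 100 kb. The same lists drew the stretches, and the dip depends in part on that.

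Over 10 and up to 50 kb from a stretch of the other 5 lists, the share of bases under peaks of the list left out was 31.0% in queen 1, 25.9% in queen 2, 30.3% in queen-less worker 1, 38.5% in queen-less worker 2, 30.7% in queen-right worker 1 and 23.5% in queen-right worker 2. Farther away it covered 39.6% and 33.9%, 36.3% and 49.4%, and 41.7% and 31.1%. The difference averaged -8.72 ± 1.97 percentage points (SD, n = 6; exact sign-flip permutation p = 0.03125, adjusted p = 0.03125 over 4 measures) and was negative in 6 of 6 samples. The other measures in this adjustment are the border differences given above without a test. These 6 differences also share lists with each other, so the p-value states only that all 6 signs were the same. In all 6 lists together the lower coverage around stretches was also seen within scaffolds that have a stretch. There, the lists covered 23.3% to 38.2% over the same distance and 32.6% to 51.7% farther away. Read in the same 6 lists that drew the stretches, bordering minus other regions averaged -219.8 covered bases, -23.4 percentage points called and -17.8 percentile points of score, and the surroundings differed by -8.91 percentage points. These values are a description, since those lists chose the stretches.

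Groups were compared by the stretches of each list on its own, which do not depend on the other lists. Gaps of at least 10000 bases numbered 2195 in queen 1, 2306 in queen 2, 2626 in queen-less worker 1, 1819 in queen-less worker 2, 2052 in queen-right worker 1 and 2389 in queen-right worker 2. Both the highest and the lowest number came from queen-less workers. The means were 2250 ± 78.5 stretches for queens, 2222 ± 571 for queen-less and 2220 ± 238 for queen-right worker ovaries (SD, n = 2 each). Differences of 28 stretches for queens minus queen-less workers, 30 for queens minus queen-right workers and 2 for queen-less minus queen-right workers were far below the pooled replicate SD of 360 (exact permutation p = 1 each). Without queen-less worker 1, queens minus queen-less workers gave 431.5 stretches, and without queen-less worker 2 it gave -375.5.

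These stretches held 52.4 Mb in queen 1, 58.0 in queen 2, 57.1 in queen-less worker 1, 47.1 in queen-less worker 2, 55.8 in queen-right worker 1 and 59.9 in queen-right worker 2. The list with most covered bases, queen-less worker 2, had the lowest number and the fewest bases in stretches, and the part of covered bases in the group values was not tested. Differences were 3.14 Mb for queens minus queen-less workers, -2.64 Mb for queens minus queen-right workers and -5.78 Mb for queen-less minus queen-right workers, beside a pooled replicate SD of 4.97 Mb (exact permutation p = 0.667 each, adjusted p = 1). At equal covered bases they were -16.1, 1.09 and 17.2 Mb in the same order, each with a sign opposite to that above. Without this trimming, queen-less minus queen-right workers exceeded the pooled SD, yet the values of the groups overlapped in all 3 comparisons, for number as for bases.

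**Figure D5:**
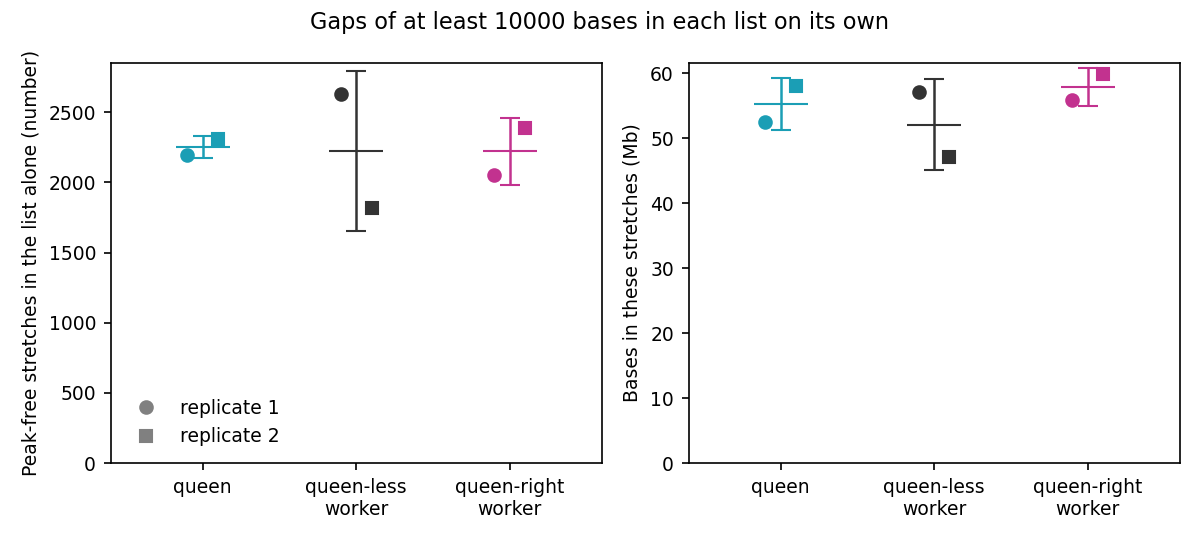
Number of gaps of at least 10000 bases (left) and the Mb they hold (right) in each list on its own. Points are samples, horizontal lines are group means and error bars are the SD (n = 2). The 2 queen-less workers, at 2626 and 1819 stretches, enclose all other samples.

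The positions of these stretches were largely common to the lists. For each list, the share of the bases in its own stretches that lay in stretches common to all lists was taken. It was 66.1% in queen 1, 57.5% in queen 2, 64.2% in queen-less worker 1 and 73.6% in queen-less worker 2. In queen-right workers 1 and 2 it was 59.96% and 56.8%. A common stretch without a peak of the list on both sides lies in no stretch of that list. The shares thus leave out part of the 38.98 Mb free in every list. The Jaccard index, bases shared by the stretches of 2 lists over the bases in either, was 0.759 for the queens, 0.648 for the queen-less workers and 0.688 for the queen-right workers. Between groups it ranged from 0.568 to 0.728 over 12 pairs, with a mean of 0.647. The indices of both worker groups thus lay within the range found between groups, and that of the queens above it.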

How the data were processed

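The authors deposited 1 list of broad peaks per ChIP sample, with scaffold, start, end and a score for each peak, a value of their peak caller whose unit the lists do not name. The submitters' processing notes name Bowtie 1.0, SAMtools 1.5, MACS2 and bedtools. Broad calling at 0.1 with 147-base extension is named in the lists. The genome build, the read filters and whether inputs entered the peak calls are not given in the sources used here. Depth per sample is unknown, so no counting interval is given.

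Peaks were merged at 1 base of overlap, and gaps of at least 10000 bases between neighbouring regions were kept. Span was the farthest peak end per scaffold. Positions count from 1. Bordering regions touch a stretch, and other regions are the rest on scaffolds with at least 2 regions. The members, lists and tests were chosen with earlier results of these data known, and the readings in a list left out were added after the values of the planned comparisons had been seen. Regions named are the 5 longest stretches, 3 gaps on each side of the limit, the 3 scaffolds with most stretches and those with extreme shares, the run with most stretches and the stretch with the widest pair of shared borders. The scaffolds with extreme shares, the exception without a stretch and the runs with most bases were chosen after their values were seen.

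Differences per sample were tested by exact two-sided sign flips over 6 samples and group differences by exact two-sided permutation of 2 samples against 2, both adjusted by Benjamini-Hochberg. Labels call the samples biological duplicates. Alternatives were a minimum score of 20, limits of 5000 and 20000 bases, equal covered bases, regions of more lists, scaffolds of at least 100000 bases, stretches at scaffold starts, leaving out each sample and a replicate block. Code was tested on simulated data. Software was matplotlib 3.10.9, SciPy 1.17.1, NumPy 2.4.6 and Python 3.11.15.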

Additional observations from a re-analysis of the deposited data

How the results depend on the processing

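Of 250 alternative values of 21 results, 152 kept their call or stayed near the reported value, 61 lost a threshold, 36 moved and 1 reversed. Group differences counted as near within the pooled replicate SD and otherwise as moved, so a change of their sign is not among the reversed. For the number and bases of stretches near was a wide range. The 2422 stretches from regions of all 6 lists counted as near the 1818 reported. The thresholds counted here include those of differences that are given above without a test, on borders or in the lists that drew the stretches. With a minimum length of 20000 bases there were 701 stretches with 23.4 Mb, 12.0% of them followed by another, and with 5000 bases there were 4171 stretches, 28.7% followed. Counting only regions of at least 5 or all 6 lists, chosen after seeing the data, gave 60.9 and 69.8 Mb, since fewer regions then divide the scaffolds. At equal covered bases 23.0% were followed. Queens minus queen-less workers then gave -433.5 stretches and -16.1 Mb, and queen-less minus queen-right workers 556 stretches and 17.2 Mb. The share free in lists left out then differed by 3.28, 25.7 and 22.4 percentage points in the order queens against queen-less workers, queens against queen-right workers and queen-less against queen-right workers. Without peaks scoring under 20, queens minus queen-less workers gave -2.95 Mb and -155.5 stretches and queens minus queen-right workers -8.68 Mb and -246 stretches. Signs of differences in number and Mb thus turned under several settings. One of these was the -5.78 Mb of queen-less minus queen-right workers, which exceeded the replicate SD and turned at equal covered bases. The score percentile at borders then differed by -13.0 points (-10.9 points in lists left out) and at equal covered bases by -6.13 points in lists left out, each missing the threshold. Among regions called in 1 of the other 5 lists, bordering minus other regions in lists left out gave 18.4 bases (the opposite sign), -6.15 points called and -0.740 percentile points, and among regions called in all 5, -174.4 bases, -2.18 points called and -7.70 percentile points. Both settings were chosen after seeing the data. The cause of the other changes was not tested.

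Leaving out each sample moved queens minus queen-less workers between -375.5 and 431.5 stretches and between -1.85 and 8.13 Mb, and queen-less minus queen-right workers between -401.5 and 405.5 stretches and between -10.8 and -0.788 Mb. Queens minus queen-right workers lay between -138.5 and 198.5 stretches and between -5.46 and 0.181 Mb. The share free in lists left out ranged from 14.9 to 44.3 percentage points for queens minus queen-less workers, from 2.06 to 16.8 for queens minus queen-right workers and from -31.3 to -4.77 for queen-less minus queen-right workers. Bordering minus other regions ranged from -223.5 to -207.1 covered bases, -23.4 to -20.6 percentage points called and -19.5 to -14.8 percentile points, and the surroundings from -9.39 to -8.20 percentage points. Read in lists left out, the ranges were -284.7 to -259.6 bases, -26.0 to -23.1 points called, -16.6 to -13.1 percentile points and -9.18 to -8.13 points for the surroundings, and -35.1 to -32.0 points for stretches themselves. These 9 results lost the threshold with any sample left out because 5 samples allow no exact p below 0.0625. Of 109 alternative values of these 9 results, 108 were negative, and the exception is the 18.4 bases above. These values are reruns of the same lists and are not independent readings. For borders, and in lists that drew the stretches, the sign depends in part on how the stretches were drawn. For stretches themselves a negative sign was likely beforehand. The count of signs is therefore a description and does not show how robust the differences are.

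Samples of the same number did not deviate together over 221071 bins (correlations -0.0959, 0.126 and -0.152), so the numbers were not taken to pair samples. A replicate block left the differences in number and Mb as they were, 28 stretches and 3.14 Mb for queens minus queen-less workers, with 0 calls and no exact p below 0.5. A crossed block of the worker groups, chosen after seeing the data, gave 0 calls. Depth limits each stretch, as a deeper library could call peaks within it.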

Other observations

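In each list alone, the gap that encloses a stretch common to all lists was longer by a median of 4717 bases in queen 1, 9826 in queen 2, 2382 in queen-less worker 1, 5085 in queen-less worker 2, 12593 in queen-right worker 1 and 11878 in queen-right worker 2. The share of cases in which it had at least 2 times the length of the common stretch was 24.6% in queen 1, 36.9% in queen 2, 14.7% in queen-less worker 1, 28.1% in queen-less worker 2, 40.4% in queen-right worker 1 and 40.5% in queen-right worker 2. Both queen-right workers lay above the other 4 samples in both values. These values cover only stretches with a peak of the list on both sides. Such stretches numbered 1637 in queen 1, 1571 in queen 2, 1720 in queen-less worker 1, 1645 in queen-less worker 2, 1585 in queen-right worker 1 and 1620 in queen-right worker 2. The lists are thus compared on sets of stretches that are not the same. Covered bases were 64.8 Mb in queen-right worker 1 and 48.8 Mb in queen-right worker 2, within and below the 53.5 to 78.0 Mb of the other 4. The common stretches were drawn with these same lists, so these values are a description and were not tested.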
